A study of Gallus gallus and Columba livia with 18 samples.

Results

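The early embryonic timing genes considered here are LIN28A, LIN28B, HMGA2, SALL4 and PRTG, measured in embryonic retinas of Gallus gallus (chicken) and Columba livia (pigeon). Members were taken by name, from a list drawn up with earlier results of these data known. Every row carrying one of the 6 names LIN28, LIN28A, LIN28B, HMGA2, SALL4 and PRTG was kept, with LIN28 as the chicken table's name for LIN28A. This gave 9 rows of 41360, 5 of 24708 in the chicken table and 4 of 16652 in the pigeon table. All 9 rows reached an FPKM (a fragment count divided by the length of the transcript and by the number mapped) of at least 1 at 1 stage or more. SALL4 and LIN28A were not matched to a pigeon row by name, and SALL4 was not analysed in that species. A pigeon row named LIN28B that lies in the surroundings of chicken LIN28 is described below.

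Polyadenylated RNA was profiled from whole retinas at 3 ages, called here E3 (embryonic days 3 to 3.5), E5 (days 5 to 5.5) and E8 (days 8 to 8.5), in embryos of either species that carried no labelled genetic change or treatment and were all incubated at 37 °C. There were 3 libraries in each of the 6 groups, and 1 to 6 retinas were pooled in a library. The tables hold a single pooled value for each gene and stage, so the spread between replicates is unknown and no difference below has a test. Days of incubation were matched between the species, whereas a pigeon embryo hatches earlier than a chick.

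LIN28A and LIN28B are RNA-binding proteins of early embryonic cells that bind the precursors of the let-7 microRNAs and block their maturation. Let-7 in turn lowers the mRNAs of LIN28A, LIN28B and HMGA2, and this loop is known from worms and mammals as a timer of development. In the mouse retina, let-7, miR-9 and miR-125 take part in the passage from early to late progenitors, and Lin28b and Prtg are among their targets.

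The labelled tissue was checked against progenitor markers. In chicken, PAX6, an eye field factor, was at 301, 253 and 252 FPKM over the stages. In pigeon, SIX6, another eye field factor, was at 493, 449 and 584 FPKM. Of 8 such markers compared in chicken and 6 in pigeon, 1 and 2 were higher by at least 1 log2 unit at E8 than at E3, against 6.65% and 9.39% of all genes, and none was lower by 1. The largest decreases in the list were those of LHX2 in chicken (88.2 to 48.2 FPKM, −0.86) and SFRP1, a secreted Wnt inhibitor, in pigeon (926 to 554 FPKM, −0.74). Summed FPKM of the other-tissue lists was not steady. Pigment epithelium markers (10 matched in chicken, 8 in pigeon) summed to 57.2, 239 and 14.6 in chicken and to 185, 197 and 21.3 in pigeon, with PMEL at 0 at all stages in chicken. Mesenchyme markers (11 and 6 matched) summed to 160, 229 and 21.1 in chicken and to 240, 177 and 33.3 in pigeon. Lens markers (7 and 6) summed to 592, 661 and 5.20 in chicken and to 10.4, 9.80 and 4.54 in pigeon. ASL1 made up 582, 625 and 2.33 of the chicken sums and was not matched in pigeon, so the pigeon sums lack it. Erythroid markers (6 and 2) summed to 799, 1927 and 124 in chicken and to 2121, 657 and 0.990 in pigeon, and endothelial markers (9 and 6) to 45.4, 60.6 and 36.3 and to 55.7, 35.9 and 6.33. Of the pigeon erythroid sums, HBZ alone made up 2120, 657 and 0.615, whereas the chicken sums held several globins. From E3 to E5 in chicken all 5 sums were higher and all 5 timing genes were lower. A sum can hide single markers, such as DCN of the mesenchyme list, lower at 25.0 and then 6.91 FPKM. The median change of that list was 0.34. From E3 to E5 in pigeon the pigment epithelium sum was higher and the other 4 were lower. From E5 to E8 in both species sums and the timing genes compared were lower together, though single markers again differed. Of the chicken endothelial sum at E8, KDR made up 18.3 and PECAM1 15.3, both higher than at E5. In that list 6 of 8 markers compared were lower by at least 1, against 4.46% of all genes, such as CDH5 (8.01 to 0.127 FPKM). In the pigeon mesenchyme list PDGFRA went from 5.26 to 25.2 FPKM, and 4 of 5 were lower by at least 1, against 7.25%. The part of these tissues in the results was not tested.

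All 5 chicken rows had lower values at each later stage, and so did the pigeon rows other than HMGA2, which was level from E3 to E5. For the pigeon LIN28B row of scaffold73 the E8 value is a listed 0, which can be a failed estimate. The order of the chicken genes at E3 was HMGA2, LIN28B, PRTG, SALL4 and LIN28, and from E5 on PRTG stood below SALL4. Without replicates it cannot be said which neighbours in that order differ beyond their spread. In whole retinas a loss of expressing cells and a loss of RNA per cell cannot be told apart.

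**Figure D1:**
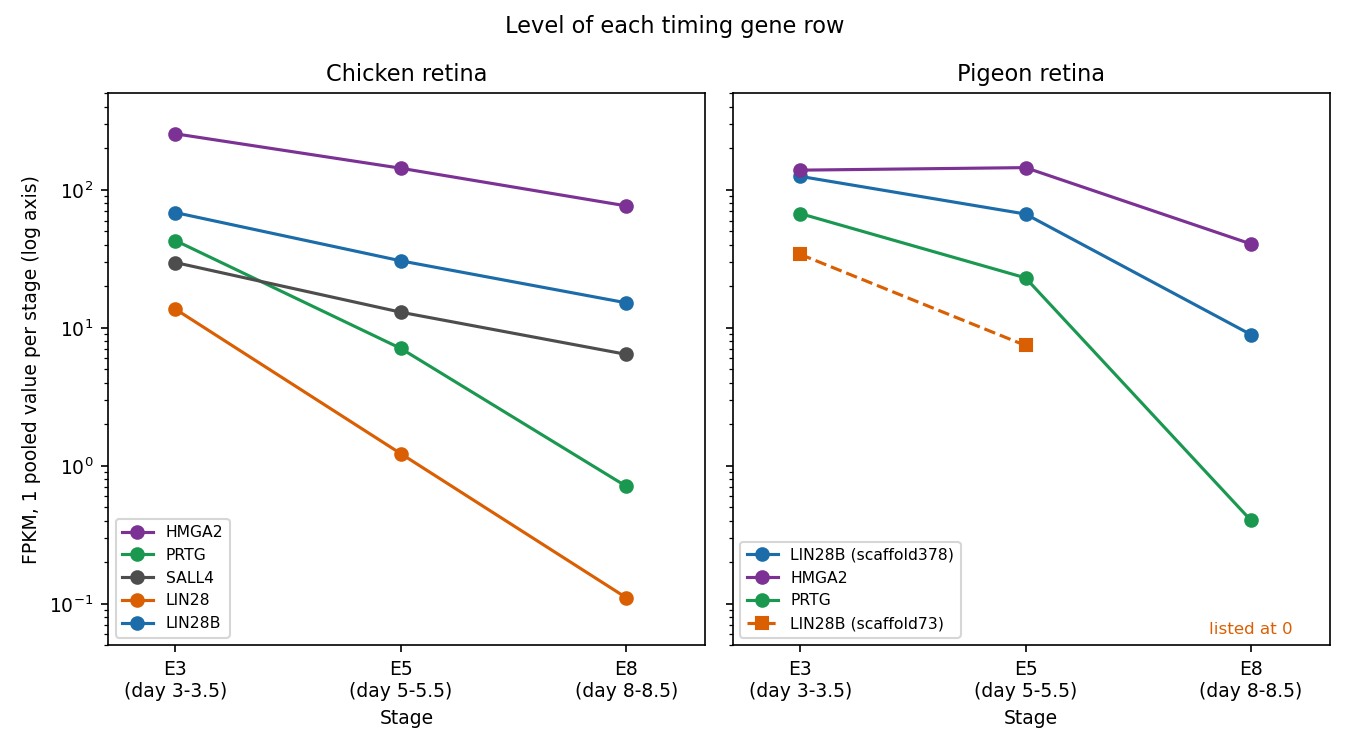
FPKM of each row (log axis) against stage, in chicken on the left and pigeon on the right, with 1 pooled value a point and no error bar. Chicken LIN28 runs from 13.7 to 0.111 and the pigeon LIN28B row of scaffold73 is listed at 0 at E8, while chicken HMGA2 is at 76.7 FPKM at E8. Pigeon HMGA2 is at 40.6 FPKM at E8, a value from a model of 138 bases that rests on little signal.

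LIN28 (LIN28A) had the lowest level of the chicken members and, as a ratio of FPKM, the largest difference. Its row lies on chromosome 23 from position 146571 to 160362 (XLOC_011923; genome build not given in the sources used here). It was at 13.7 FPKM at E3, 1.23 at E5 and 0.111 at E8. As a ratio the steps were 11.2-fold lower and then 11.1-fold lower. The second ratio, and that from E3 to E8, rest on an E8 value below the FPKM of 1 used as a minimum. Low chicken values have no depth estimate, so whether the steps are equal cannot be said. Changes are otherwise given as differences of log2(FPKM + 1), which shrinks the second step of a gene this low. On that scale the steps were −2.72 and −1.003. The first was the fourth lowest of 14490 chicken genes compared, and was −1.58 with a pseudocount of 5. The second lay at the threshold of 1 used below and became −2.65 with a pseudocount of 0.1 and −0.28 with 5.

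LIN28B was the more abundant paralog at every stage. In chicken its row on chromosome 3 from 71546367 to 71626503 (XLOC_014606) was at 68.5, 30.6 and 15.2 FPKM, 2.24-fold and then 2.02-fold lower, with log2 changes of −1.14 and −0.97. The value was lower at each stage, and at E8 it was 22.2% of that at E3, against 0.811% for LIN28. The ratio of LIN28B to LIN28 accordingly went from 5.01 at E3 to 25.0 at E5 and 137 at E8. Of the summed FPKM of both genes, LIN28 made up 16.6% at E3, 3.85% at E5 and 0.724% at E8. The E8 ratio and percentages of LIN28 rest on its value of 0.111 FPKM, so their size is uncertain.

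The pigeon table named 2 rows LIN28B, and they lie in different surroundings. One row, on scaffold378 from 1319350 to 1397298 (Cli_R009082, model length 747 bases), lies between HACE1 and POPDC3, the same pair that flanks LIN28B in chicken. The other, on scaffold73 from 794522 to 804926 (Cli_R014359, 513 bases), lies between DHDDS and AIM1L, the pair that flanks LIN28 in chicken. HMGN2, farther out on one side, and SH3BGRL3, on the other, were also found beside both. The rows carry the same zebra finch transcript as their annotation source. By its neighbours the scaffold73 row matches chicken LIN28 and not chicken LIN28B. No sequence was compared, and the row is kept here under its deposited name.

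**Figure D2:**
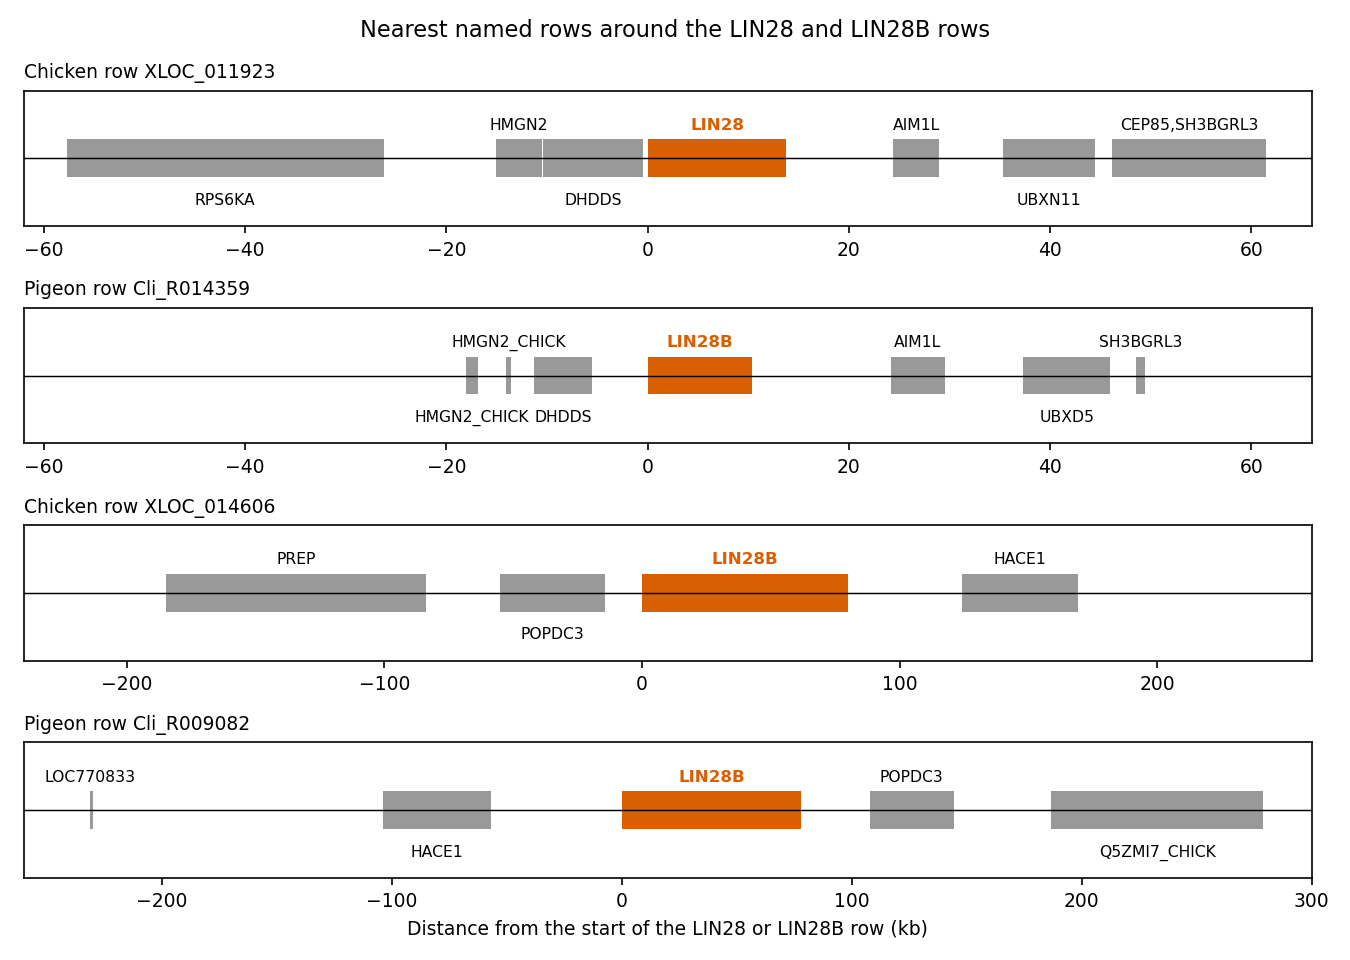
Named rows around chicken LIN28, the pigeon LIN28B row of scaffold73, chicken LIN28B and the pigeon LIN28B row of scaffold378, drawn to scale by distance in kb from the start of the row in orange. The first pair shares DHDDS and AIM1L as nearest neighbours, and the second pair shares POPDC3 and HACE1, in reverse orientation.

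The scaffold378 row was at 125 FPKM at E3, 66.9 at E5 and 8.95 at E8, and the scaffold73 row was at 34.1, 7.46 and 0. The first was 1.88-fold lower at E5 than at E3 and 7.48-fold lower at E8 than at E5, with log2 changes of −0.90 and −2.77. The scaffold73 row was 4.58-fold lower at E5, a log2 change of −2.06 and the 14th lowest of 11948 pigeon genes compared. Its value of 0 at E8 was left out of the changes, since a listed 0 can be a failed estimate. Among models of like length, the lowest E8 value other than 0 was 0.410 FPKM. As in chicken, the row flanked by DHDDS was the lower one and was farther below its E3 level at E5, at 21.8% against 53.3% for the scaffold378 row. Chicken LIN28 and LIN28B stood at 8.97% and 44.7% of their E3 levels at E5. With both pigeon rows summed under 1 name, the change from E3 to E5 was −1.09 in place of −0.90. By their neighbours that sum may join 2 genes.

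HMGA2, which encodes an AT-hook chromatin protein and is a let-7 target in mammals, was the most abundant chicken member. Its chicken row, on chromosome 1 from 36072025 to 36079338 (XLOC_000186), was at 255 FPKM at E3, 144 at E5 and 76.7 at E8. At E3 it stood above 97.3% of the chicken rows with an FPKM of at least 1, and at E8 above 90.7% of them. Its steps were of like size, −0.82 and −0.90, and neither reached 1. In pigeon, the row on scaffold50 from 121609 to 129408 (Cli_R011047) was at 139, 145 and 40.6 FPKM, with changes of 0.06 and −1.81, so that the whole difference lay after E5. That model is 138 bases long. Its values came to 9.53, 12.5 and 2.37 times the smallest nonzero value among models of like length, here called steps, so the E8 value rests on little signal.

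PRTG, protogenin, is a cell-surface receptor of the immunoglobulin superfamily, related to DCC and neogenin, and is known from the early neural tube. In chicken (chromosome 10 from 8959034 to 9040359, XLOC_003656) it was at 42.9, 7.10 and 0.712 FPKM. It was 6.05-fold lower at E5 than at E3 and 9.97-fold lower at E8 than at E5, with log2 changes of −2.44 and −2.24. In pigeon (scaffold506 from 2872181 to 2951397, Cli_R011225, 3333 bases) it was at 67.4, 23.0 and 0.403 FPKM. These steps were 2.93-fold and 57.2-fold, with log2 changes of −1.51 and −4.10, and the E8 value held 9.10 steps. The second step depends on the pseudocount: with 0.1 and 5 the chicken change was −3.15 and −1.08, and the pigeon change −5.52 and −2.38. From E3 to E8, PRTG had the fourth lowest change of 14451 chicken genes (−4.68, or −3.07 with a pseudocount of 5) and the fifth lowest of 11785 pigeon genes (−5.61).

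SALL4 encodes a zinc finger transcription factor of pluripotent cells. Its chicken row (chromosome 20 from 13146719 to 13155031, XLOC_010950) was at 29.8 FPKM at E3, 13.0 at E5 and 6.43 at E8. It was 2.29-fold and then 2.02-fold lower, close to the steps of LIN28B, with log2 changes of −1.14 and −0.91. The first became −0.95 with a pseudocount of 5. Its relative SALL1 did not follow this course, with 33.6, 16.3 and 27.6 FPKM in chicken. In pigeon the higher of 2 rows named SALL1 was at 42.1, 33.5 and 81.3.

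Counted by a change of at least 1 log2 unit, 4 of 5 chicken members were lower at E5 than at E3, where 1.00% of all chicken genes compared were. From E5 to E8 the count was 2 of 5 against 4.46%, with LIN28B, SALL4 and HMGA2 between −0.97 and −0.90, and from E3 to E8 it was 5 of 5 against 5.29%. In pigeon it was 2 of 4 against 1.36% from E3 to E5, 3 of 3 against 7.25% from E5 to E8 and 3 of 3 against 8.58% from E3 to E8. The medians of the members from E3 to E8 were −2.10 in chicken and −3.67 in pigeon, beside −0.01 and 0.00 over all genes. No member was higher by 1 in any of these comparisons. The members were chosen with earlier results of these data known, so their counts beside these shares are a description and not a test.

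The genes listed in both tables differed in when their values went down. The interval from E3 to E5 is shorter than that from E5 to E8, so the percentages below are not rates. In chicken LIN28B, HMGA2 and PRTG had reached 54.1%, 47.9% and 52.1% of their log2 change from E3 to E8 by E5. In pigeon the same genes had reached 24.5%, −3.45% and 26.9%, where the HMGA2 value comes from a model of 138 bases with little signal. Chicken SALL4 stood at 55.4%, and chicken LIN28 at 73.1%, or 56.0% with a pseudocount of 0.1. For all genes lower by at least 1 from E3 to E8 the median was 25.7% in chicken (760 genes) and 16.4% in pigeon (1010 genes). Each of the 5 chicken members thus lay above the chicken median, and 2 of the 3 pigeon genes lay above the pigeon median. Many other genes had a larger percentage still. For chicken HMGA2, PRTG, LIN28B, SALL4 and LIN28 these were 191, 158, 150, 134 and 68 of the 760. For pigeon LIN28B, PRTG and HMGA2 they were 354, 313 and 845 of the 1010. Among the 131 symbols listed once in both tables and lower by 1 in both species, the percentage at E5 was larger in chicken for 65. With pseudocounts of 0.1 and 5 the chicken percentage was again the larger for LIN28B, HMGA2 and PRTG.

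**Figure D3:**
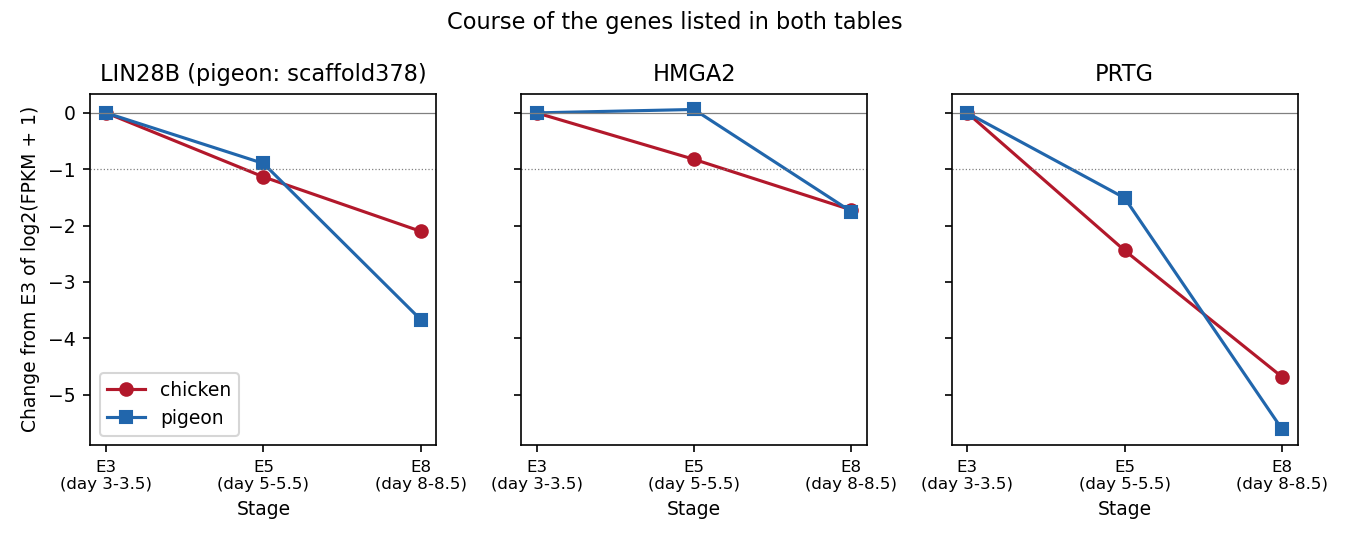
Change of log2(FPKM + 1) from E3 for the 3 genes listed in both tables, chicken in red circles and pigeon in blue squares, with a dotted line at −1. The chicken values go down in steps of like size, and most of each pigeon decrease lies between E5 and E8. The stages are drawn evenly spaced, though the interval from E3 to E5 is shorter than that from E5 to E8.

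The pigeon change minus the chicken change gives the same pattern by step. From E3 to E5 the difference was 0.24 for LIN28B, 0.88 for HMGA2 and 0.93 for PRTG, none past 1, where 0.790% of shared genes had a difference of at least 1 toward pigeon. From E5 to E8 it was −1.81, −0.91 and −1.86, and 2 of the 3 were past −1, against 3.19% of shared genes. Over the whole span from E3 to E8 it was −1.57, −0.03 and −0.93, with 1 of the 3 past −1, against 4.55%. The species thus ended with about equal changes in HMGA2 and the larger decrease of LIN28B in pigeon. The pigeon HMGA2 value at E8 rests on only 2.37 steps. The tables were normalised separately, and no level was set against a level of the other species.

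**Figure D4:**
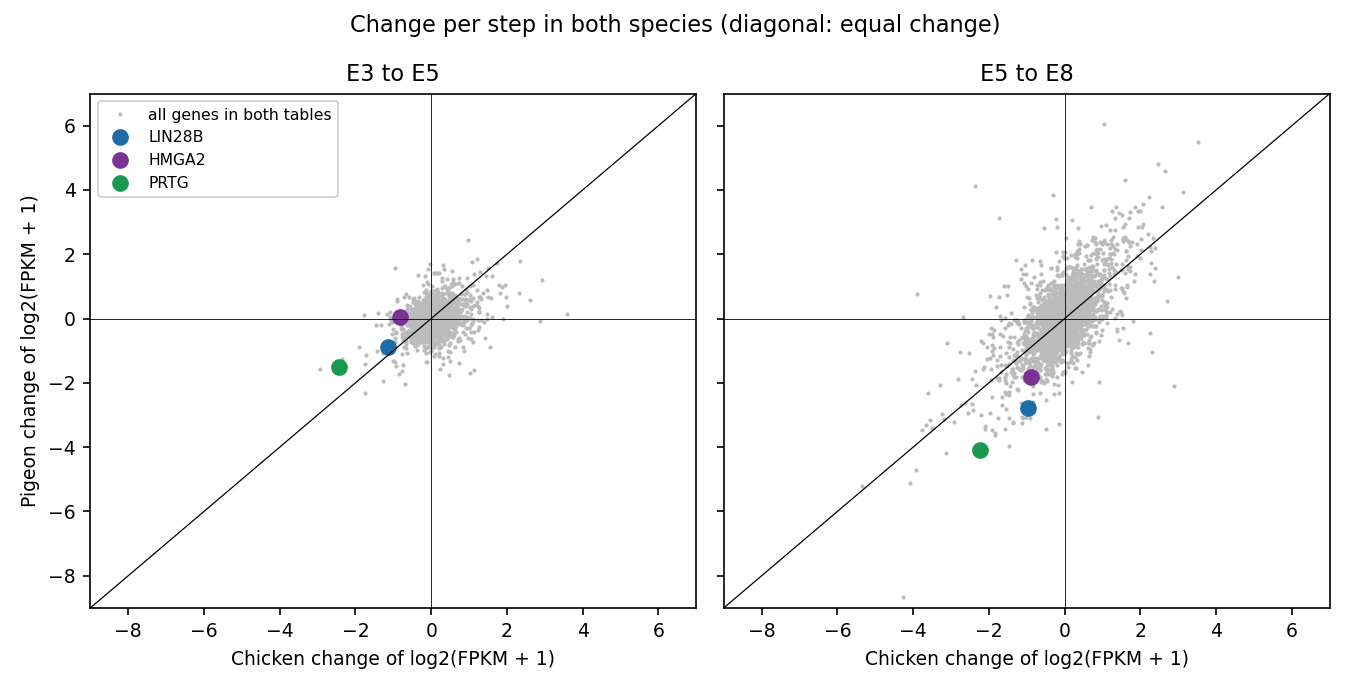
Pigeon against chicken change of log2(FPKM + 1) for 5283 symbols listed once in both tables (grey) and for LIN28B, HMGA2 and PRTG, from E3 to E5 on the left and from E5 to E8 on the right, with the diagonal marking equal change. The 3 genes lie above the diagonal in the first step and below it in the second.

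Of 16 chicken and 15 pigeon genes of microRNA processing and silencing, 0 in chicken and 1 in pigeon were lower by at least 1 at E8 than at E3, against 5.29% and 8.58% of all genes, and none was higher. These counts are near the background. The medians were −0.09 and −0.12. DICER1, which cuts microRNA precursors, was at 27.1, 24.4 and 22.8 FPKM in chicken. ZCCHC11 (TUT4), the enzyme that adds uridines to let-7 precursors bound by LIN28, was at 16.5, 14.5 and 18.6 in chicken and at 37.4, 40.6 and 54.3 in pigeon. The pigeon gene lower by 1 was TRIM71, the homologue of worm lin-41 and a let-7 target, at 80.6, 73.8 and 23.7 FPKM. In chicken TRIM71 was at 29.5, 19.3 and 14.6, a change of −0.97. From E5 to E8 in pigeon, 2 of 15 were lower, against 7.25% of all genes. They were TRIM71 (−1.60) and TARBP2, a partner of Dicer, at 39.1 and 16.4 FPKM (−1.21).

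Genes reported as let-7 targets went both ways. In chicken 1 of 20 was higher and 1 lower by at least 1 from E3 to E8, and in pigeon 2 of 16 were higher and 3 lower. Over all genes 6.65% were higher and 5.29% lower in chicken, and 9.39% higher and 8.58% lower in pigeon. The chicken counts are near these shares, and 16 genes are too few to set the pigeon counts apart from them. The medians were −0.15 and −0.07. MYC, a growth regulator, was lower in both species (25.1 to 7.22 and 58.4 to 11.1 FPKM from E3 to E8), and TRIM71 and CCND2 were lower in pigeon. CDK6, a cell cycle kinase, was higher in chicken, and CCND1 and NR2E1 were higher in pigeon. IGF2BP1, an RNA-binding protein of embryonic tissue, was at 119, 86.9 and 60.3 FPKM in chicken (−0.97), and IGF2BP3 went from 222 to 145 in chicken and from 413 to 288 in pigeon, short of the threshold.

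Of the family of PRTG, IGDCC3, a receptor of the same family, was lower in both species. In chicken its higher row of 2 was at 93.7, 32.9 and 9.93 FPKM (−3.12 from E3 to E8), and in pigeon it was at 222, 115 and 20.6 (−3.37). Neither IGDCC4 in chicken (20.4, 17.3 and 11.2) nor NEO1, neogenin, in chicken (32.5, 28.3 and 35.9) reached a change of 1. The higher of 2 pigeon NEO1 rows, at 80.2, 74.9 and 49.4 (−0.69), did not either. Lower by at least 1 were thus 1 of 3 chicken and 1 of 2 pigeon genes, against 5.29% and 8.58% of all genes. In the list of pluripotency and early embryo genes, 2 of 8 chicken genes were lower from E3 to E8, against 5.29% of all genes, and 1 was higher, against 6.65%. Those lower were SOX3, at 8.07, 4.54 and 2.06 FPKM, and the DNA methyltransferase DNMT3B, at 170, 157 and 81.1. The one higher was OTX2, a homeobox gene, at 23.8, 51.2 and 94.3. In pigeon 2 of 5 were higher, SOX2 and OTX2, against 9.39%, and none was lower.

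Of the factors tied in mouse to the temporal identity of retinal progenitors, 4 of 6 chicken genes and 4 of 7 pigeon genes were higher by at least 1 from E3 to E8, against 6.65% and 9.39% of all genes. None was lower by 1, and the medians were 1.13 and 1.17. Among those that did not pass, the homeobox gene LHX2 was at 88.2, 57.8 and 48.2 FPKM in chicken (−0.86), and POU2F1, an octamer-binding factor, at 13.4, 8.62 and 9.39 in pigeon (−0.47). NFIA, a nuclear factor of late progenitors, was at 0.313, 1.16 and 1.76 FPKM in chicken and at 0.302, 1.81 and 4.40 in pigeon. FOXN4, a forkhead factor of progenitors, was at 21.9, 36.5 and 55.1 in chicken. SOX9 was at 8.36, 17.2 and 35.6 in chicken, and CASZ1 at 8.38, 15.9 and 27.4 in pigeon. These lists were drawn up with earlier results of these tables known.

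**Figure D5:**
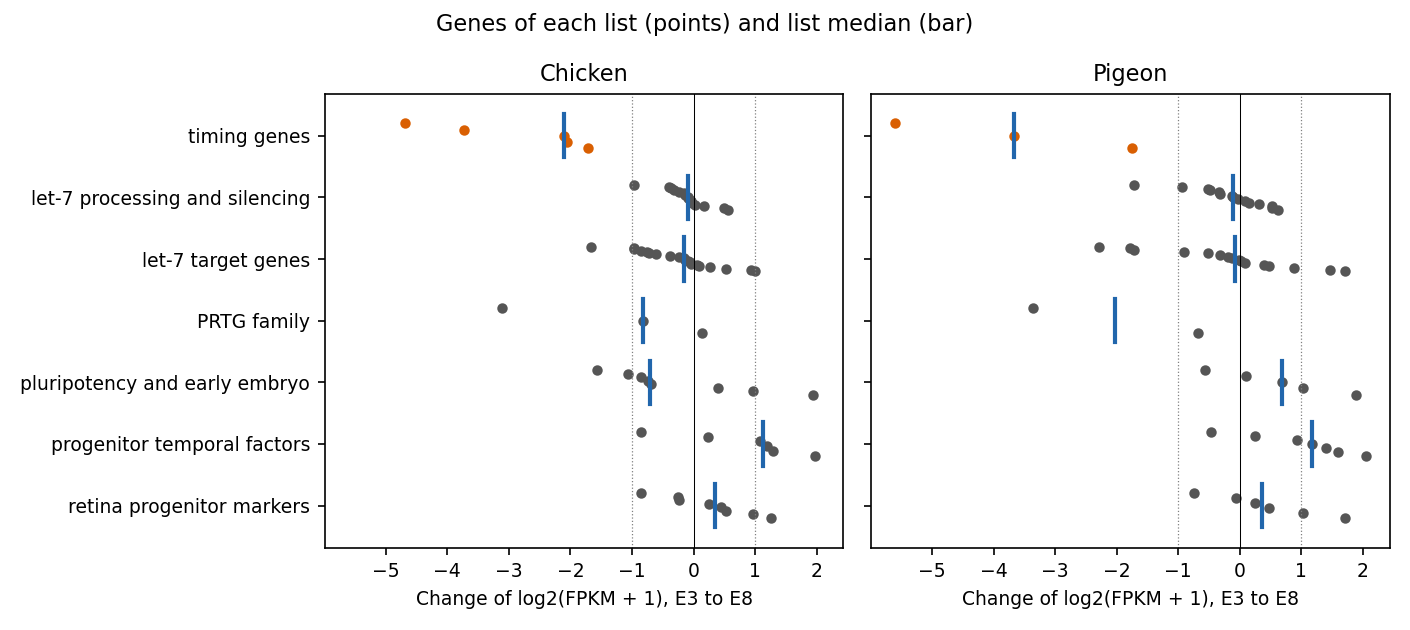
Change of log2(FPKM + 1) from E3 to E8 for the timing genes (orange) and 6 lists (grey), 1 point per gene, with a blue bar at the list median and dotted lines at −1 and 1. The timing genes lie between −5.61 and −1.72. The medians of the let-7 processing and let-7 target lists lie within 0.15 of 0, but their single genes spread more widely. Pigeon MYC, at −2.29, lies inside the range of the timing genes, and pigeon CCND1 lies at 1.71.

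The chicken table also names rows after microRNA genes, chosen here after their values were seen. Since polyadenylated RNA was profiled, they can hold primary transcripts but not mature microRNAs. Of 9 let-7 rows 3 were above 0 and 2 reached an FPKM of 1. Among the rows at 0, gga-let-7a-3, gga-let-7b, gga-let-7j and gga-let-7k span only 76, 85, 83 and 83 bases. Absence of a primary transcript cannot be read from rows so short. Row gga-let-7g, with a locus of 44802 bases, was also listed at 0 at all 3 stages. A locus can be shared by several rows, so it need not give the length of this row. Absence cannot be read from its 0 either. The row that joins gga-let-7a-1, gga-let-7d and gga-let-7f (chromosome 12 from 6300541 to 6303321) was at 27.8, 19.4 and 27.3 FPKM, and gga-let-7i at 5.78, 5.99 and 6.20, so neither was higher by 1 at any step. Both miR-9 rows were higher at E8. Row gga-mir-9-2 (chromosome Z from 59286315 to 59287239) was at 0.0606, 0.741 and 6.94 FPKM, and gga-mir-9-1 at 0, 0.136 and 2.70. The miR-125b row was listed at 0 at all 3 stages. It shares a locus of 185837 bases with gga-let-7c, also at 0, and a listed 0 can be a failed estimate.

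By likeness of course, measured as the distance between the log2 changes from E3 to E5 and from E3 to E8, the nearest genes to LIN28B were NOTUM (distance 0.74), ATOH8 (0.92) and STRA6 (0.95) among 4521 symbols of both species. NOTUM, a secreted inhibitor of Wnt signalling, was at 18.5, 9.07 and 2.43 FPKM in chicken and at 65.4, 38.6 and 6.78 in pigeon. HMGA2 was nearest to FGFR1 (0.50), NKD1 (0.58) and COL24A1 (0.60). For PRTG the nearest were COL14A1 (1.23), FIGF (1.81) and DCN (2.05), of which DCN, a matrix proteoglycan, is among the mesenchyme markers listed above. Within chicken alone, over 8357 symbols and 2 changes, LIN28 was nearest to IGFBP2 (0.38), COL14A1 (0.41) and SH3BGR (0.66), and SALL4 to LIN28B (0.05), MLC1 (0.09) and FHDC1 (0.14).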

How the data were processed

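The authors deposited FPKM per gene in 1 table per species, with 1 value per stage and no column per library, per the file headers; how libraries were combined is not stated there. TopHat2, Bowtie2, Cufflinks and Cuffdiff are named in the submitters' processing notes, without versions. For builds and annotation, nothing was stated in the labels or headers. The deposited pigeon table also gives model lengths. Read totals are not given, so depth is unknown and was approached in pigeon by dividing a value by the smallest nonzero value among models within 5% of its length.

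limma was planned for values per library and could not be used. Changes of log2(FPKM + 1) were computed with pandas 2.3.3 for rows that reached an FPKM of 1 at any stage and were above 0 at both compared, and were counted from 1 log2 unit. The step was run on simulated data without noise, which checks only its arithmetic. Likeness used symbols listed once, with a highest FPKM of at least 5 and no 0. Lists took the row of highest mean FPKM of a symbol and older symbols such as EIF2C2 and ZCCHC11. Genes named are the members, the 3 most like each, and list genes past 1 or among the 4 largest changes. A few list genes below that, and the microRNA rows, were named after their values were seen. Members and lists were chosen with earlier results of these data known. Starts were converted to count from 1, as 2768 pigeon models match their span only when starts count from 0; this could not be checked for chicken.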

Additional observations from a re-analysis of the deposited data

How the results depend on the processing

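Of 224 changes of single member rows under 8 other settings and 1 chosen after seeing the data (values of 0 included), 212 kept their direction and their side of the threshold, and none changed sign. Of the rest, 2 were no longer past 1, 3 newly passed it, and 7 were past 1 but short of 2 when a change of at least 2 was asked for. Much of this stability was fixed in advance. The filters on low values, the inclusion of 0 and the threshold of 2 do not alter the size of a change. Summed rows alter only that of pigeon LIN28B. Only the pseudocounts and the normalisations could move the others. From E5 to E8 the count of 2 chicken members lower became 4 with a pseudocount of 0.1, 1 with a pseudocount of 5 and 1 at the threshold of 2. At that stricter threshold the counts from E3 to E5 became 2 in chicken and 1 in pigeon. Those from E3 to E8 went from 5 to 4 in chicken and from 3 to 2 in pigeon. The pigeon count from E5 to E8 also went from 3 to 2. No longer counted at that threshold were the pigeon minus chicken differences of LIN28B (−1.81 from E5 to E8, −1.57 from E3 to E8) and PRTG (−1.86 from E5 to E8). With a pseudocount of 5 the chicken count from E3 to E5 went from 4 to 3. With values of 0 included the pigeon counts from E5 to E8 and from E3 to E8 became 4. With a pseudocount of 0.1 the PRTG differences passed 1, at 1.04 from E3 to E5 and −1.34 from E3 to E8. The HMGA2 difference from E3 to E8, −0.03, was 0.012 with a pseudocount of 5 and 0.0054 with median-ratio scaling.

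Counts over all genes depend more on these choices. With pseudocounts of 0.1 and 5, chicken genes lower from E3 to E5 went from 145 to 362 and 44, from E5 to E8 from 648 to 1147 and 212, and from E3 to E8 from 764 to 1299 and 273 (higher, from 961 to 1639 and 353). Pigeon genes lower from E3 to E5 went from 163 to 338 and 59, and with a pseudocount of 5 from 857 to 467 (E5 to E8) and from 1011 to 567 (E3 to E8; higher, from 1107 to 660). An FPKM of at least 5 left 399 and 503 chicken genes lower from E5 and from E3 to E8, and 574 higher. With values of 0 included, 256 pigeon genes were lower from E3 to E5. These 2 settings also alter how many genes are compared, so their counts do not tell whether the share of genes moved. At a threshold of 2 15, 141 and 174 chicken genes and 16, 181 and 265 pigeon genes were lower over the 3 comparisons, with 218 and 319 higher from E3 to E8. No paired analysis was possible because the columns carry no replicate, and no library could be left out for the same reason. Low chicken values have no depth estimate.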

Other observations

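The chicken HMGA2 row spans 7314 bases, and 13 rows with no name lie within 100 kb of it, a window chosen after the values were seen. All 13 were lower at E8 than at E3, where 33.7% of 7087 unnamed chicken rows above 0 were. Only 8 of them reached an FPKM of 1. Most of the 13 start between 79541 and 97706 bases beyond HMGA2, several of them nearly end to end. They cannot be taken as 13 independent observations to set against that share. The highest, XLOC_002581, lies 97.7 kb beyond HMGA2 on chromosome 1, from 36177044 to 36180449. It was at 134 FPKM at E3, 84.6 at E5 and 35.2 at E8, with log2 changes of −0.66 and −1.24, and its ratio to HMGA2 was 0.527, 0.589 and 0.459. Another unnamed row before HMGA2, XLOC_002569, was at 7.74, 3.46 and 0.473. Within the same window of chicken LIN28 there were 4 unnamed rows, of which 1 was lower and 3 were higher at E8, and the 1 row near PRTG was lower. The tables do not tie these rows to a gene.

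Of the nearest named neighbours of the member rows, 7 in chicken and 6 in pigeon reached an FPKM of 1. In chicken 2 of the 7 were lower by at least 1 from E3 to E8, against 5.29% of all chicken genes, and in pigeon 0 of the 6, against 8.58%. They were POPDC3 beside LIN28B, at 25.9, 20.4 and 11.6 FPKM, and PYGO1 beside PRTG, at 14.7, 12.8 and 6.11. In pigeon POPDC3 was at 4.91, 4.36 and 5.63. MSRB3, beside chicken HMGA2, was at 6.10, 4.81 and 2.71 (−0.94). DHDDS, 451 bases from chicken LIN28, was at 20.9, 18.3 and 20.8 FPKM.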
